A study of Mus musculus with 12 samples.

Results

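The response of CD18-deleted regulatory T cells (Treg) to anti-CD3 and anti-CD28 was measured in 6 of the 12 libraries of the series, the 3 stimulated and 3 unstimulated CD18Foxp3 cultures, chosen by their genotype and culture labels. In CD18Foxp3 mice the CD18 gene (Itgb2, flanked by loxP sites on both alleles) was deleted by a Cre recombinase under Foxp3 control, and an RFP reporter in ROSA26 marked the cells in which Cre had acted. All 6 cultures were of RFP+CD4+ cells sorted from spleen of age- and sex-matched mice (the age was not given in the sources used here) and kept overnight in 5 U/mL recombinant human IL-2. The stimulated cultures had anti-CD3 added at 1 μg/mL, along with anti-CD28 at 2 μg/mL. The other 6 libraries were from CD18wt Treg, which carried the same Foxp3Cre with intact CD18, in the same 2 cultures, and enter below only where the genotypes are compared. The labels call the replicates biological. They do not say whether a stimulated and an unstimulated culture with the same number came from 1 animal.

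Treg are CD4+ T cells that restrain other immune cells and depend on the transcription factor Foxp3. Antigen is sensed by the T cell receptor (TCR) with its CD3 chains, and CD28 gives the second, costimulatory signal, so that agonistic antibodies to both stand in for an antigen-presenting cell. Downstream, calcium and NFAT, ERK and AP-1, NF-κB, and PI3K with mTOR turn a resting lymphocyte into a growing and dividing one. CD18 is the common β chain of the β2-integrins, among them LFA-1 (Itgal with Itgb2), which binds ICAM-1 on other cells.

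The CD18Foxp3 libraries held 15337271 to 19005482 exon reads. Between the 2 cultures the correlation of log2 CPM was 0.859 to 0.887, against 0.977 to 0.980 among unstimulated and 0.962 to 0.978 among stimulated replicates. Stimulated replicate 1 stood apart from the other stimulated libraries: its chi-square per gene was 58.7 and 63.8 against them, where those 2 differed by 11.7. Some list counts are given with and without it, and single genes mostly with it only. Without it, 2 of 203 genes compared across settings lost their call and 1 gained it. Several markers that define other cell types were at or near 0. Igkc (plasma cells), Fcgr1 (macrophages), Siglech and Clec9a (dendritic cells) and Ncr1 (NK cells) had no read in any of the 6 libraries. Other members of the same marker lists had reads. Levels are given in TPM (transcript abundance, as reads per exon length scaled to the same sum in every library). The summed level of the 6 B cell markers was 27.3 to 35.4 TPM in unstimulated and 9.48 to 13.2 TPM in stimulated libraries, most of it Cd79b, that of the 6 CD8 T and NK cell markers 28.3 to 36.1 and 18.7 to 28.3 TPM, that of the 8 myeloid markers 2.66 to 7.20 and 1.22 to 1.73 TPM, that of the 6 dendritic cell markers 0.854 to 1.24 and 2.17 to 4.95 TPM, that of the 5 plasma cell markers 2.27 to 5.81 and 2.52 to 4.16 TPM, and that of the 5 erythroid markers 1.67 to 32.6 and 0.0813 to 0.263 TPM. Few markers had enough reads to test. At the threshold given below, 2 of 2 for B cells and 1 of 1 for myeloid cells were lower in stimulated cultures. So were 2 of 3 for CD8 T and NK cells. The 1 plasma cell marker tested was higher (log2 fold change 2.68), and neither of 2 dendritic cell markers passed (median 1.71). What part these cells had in the results was not tested. The Treg markers Cd3e, Cd3g, Cd4, Foxp3, Il2ra and Ikzf2 were all present in every library. In bulk RNA, fewer cells of a type and less RNA per cell cannot be told apart.

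Itgb2 itself checks the labels in part. It was read at 229, 257 and 234 TPM in the unstimulated CD18Foxp3 libraries and at 465, 431 and 387 TPM in the unstimulated CD18wt libraries, without overlap. On stimulation it was at 131, 202 and 183 TPM in CD18Foxp3 Treg and at 331, 329 and 329.6 TPM in CD18wt Treg. The reads are counted over the whole gene (chromosome 10, 77530252 to 77565708, GRCm38), so transcripts that lack the deleted exon still count, and the loss of CD18 protein cannot be read from these values. 

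Stimulation changed the level of a large part of the genes that these Treg transcribed, in both directions. Of 12019 genes tested, 4636 (38.6%) passed a fold change of at least 1.5 with an adjusted p of at most 0.01 in edgeR's quasi-likelihood test, the threshold behind every "rose" and "fell" below. Of these, 2516 were higher (20.9% of the genes tested) and 2120 lower (17.6%) in the stimulated cultures. The median log2 fold change was 1.25 among the genes that rose, -1.21 among those that fell and 0.01 over all genes tested. Large changes were more often rises: 630 genes rose and 436 fell at least 4-fold, and 114 rose and 54 fell at least 16-fold. The TPM of the 2 cultures did not overlap in 8068 of the genes tested (67.1%), in all 2516 genes that rose and in 2013 of the 2120 that fell. With 3 against 3 libraries, an exact two-sided permutation test of a single gene cannot give a p under 0.1.

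The split into rises and falls depended on the scaling. The genes that rose made up 54.3% of the calls with TMM scaling, 49.0% with upper-quartile scaling, 66.5% with library size alone and 75.9% to 76.4% with limma on log2 TPM. TMM factors were 0.933 to 0.952 in unstimulated and 1.05 to 1.07 in stimulated libraries. A ratio of mean TPM was at the median 1.29 times the fitted fold change. Both are relative measures, so that a gene that fell did so as a share of the RNA. RNA per cell was not measured. Levels below are TPM, given for the unstimulated replicates 1 to 3 against or to the stimulated replicates 1 to 3. Fold changes are the fitted ones, written as log2 with ± SE unless given as a fold, negative where the gene was lower, relative to a median over all genes near 0, with adjusted p from the same test. The SE was derived as the size of the log2 fold change over the square root of the test's F. It is approximate, most of all for genes with few reads.

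**Figure D1:**
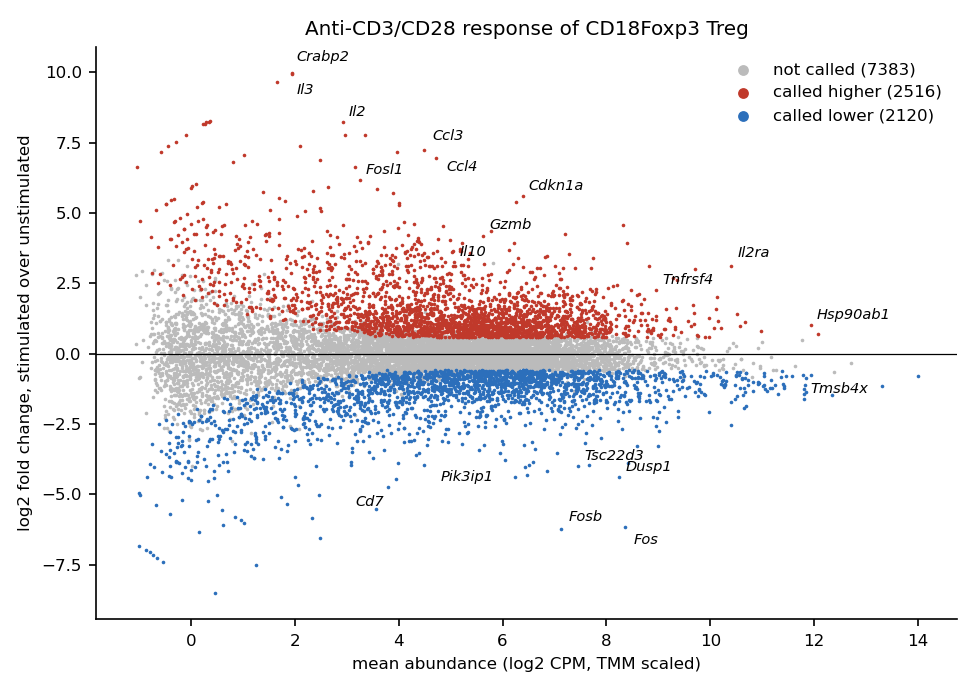
Fitted log2 fold change on stimulation (vertical) against mean abundance in log2 CPM (horizontal) for the 12019 genes tested in CD18Foxp3 Treg, 3 against 3 libraries. The 2516 genes called higher (red) reach further from 0 than the 2120 called lower (blue), and both are found at every abundance. Fitted values of genes with no read in 1 culture depend on the prior count and are not bounds.

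The make-up of the RNA changed with these calls. The genes that rose held 7.63% to 8.17% of all TPM in the unstimulated and 23.0% to 23.7% in the stimulated libraries. The genes that fell held 54.8% to 56.8% before and 32.6% to 34.6% after. The 10 genes with the most reads in a library took 7.34% to 8.09% of its exon reads in unstimulated and 5.26% to 5.76% in stimulated cultures. Among the 8 genes with the largest rise in TPM were Hsp90ab1, a cytosolic chaperone, at 2138, 2223 and 2160.3 TPM unstimulated and 5109, 6093 and 5809 TPM stimulated, and Ptma (prothymosin alpha, a nuclear protein of growing cells), at 2373, 2490.2 and 2736 against 5084, 6014 and 6107 TPM. Npm1, a nucleolar protein, was at 964 ± 14.3 and 2723 ± 454 TPM (mean ± SD, n = 3), and Eif5a, a translation factor, at 592 ± 18.9 and 2275 ± 398 TPM. The others were Tnfrsf4 (below), Hspa8, Tuba1b and Mif, of which only 21.04%, 20.8% and 34.7% of the exon reads were placed uniquely, so that reads shared with copies leave their levels uncertain. The 8 largest falls in TPM were those of the mitochondrial mRNAs mt-Atp6, mt-Co1, mt-Atp8 and mt-Co3, of Tmsb4x (9514, 9637 and 10437 TPM to 4989, 3612 and 3902 TPM), which binds actin monomers, of the elongation factor Eef1a1 (21159, 21250.0 and 20381 TPM to 16727, 14847 and 15012 TPM), of the ribosomal Rplp1 (47.4% unique) and of the MHC class I light chain B2m.

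**Figure D2:**
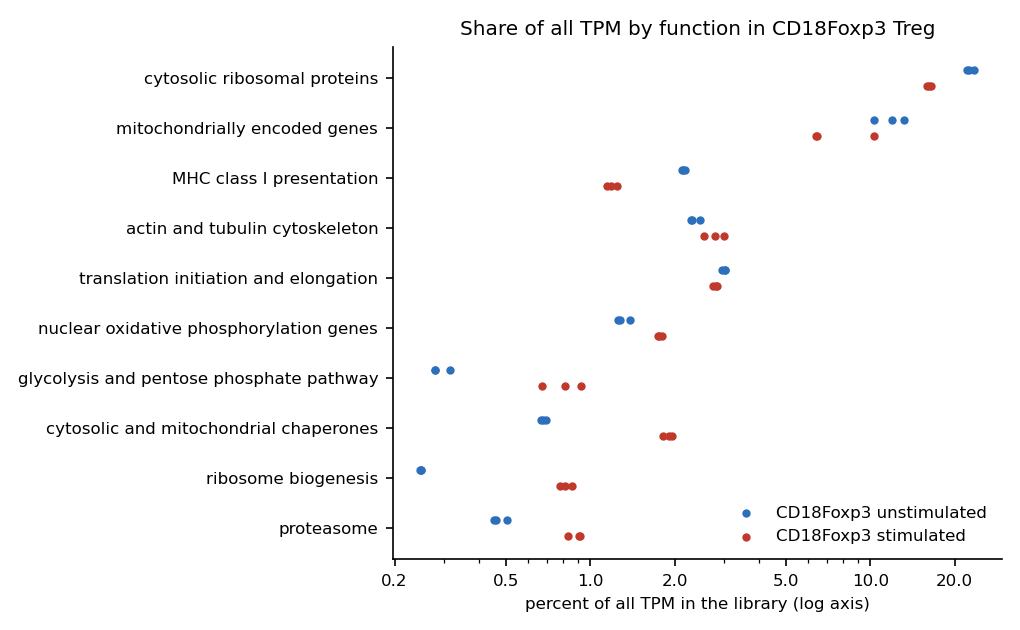
Share of all TPM held by 10 groups of genes (rows) in each of the 3 unstimulated (blue) and 3 stimulated (red) CD18Foxp3 libraries, on a log axis in percent. Ribosomal proteins went from 22.1% to 23.5% of TPM to 15.98% to 16.4%, while chaperones went from 0.666% to 0.695% to 1.82% to 1.96%.

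The largest rises were of genes that resting Treg hardly transcribed. Crabp2, a retinoic acid binding protein, had no read in the 3 unstimulated libraries and 20.5, 14.6 and 18.6 TPM in the stimulated ones, at least 38.9-fold higher when each unstimulated library is set at a floor of 3 reads. Il3, a growth factor for myeloid cells, was at least 38.2-fold higher by the same measure, with a wide spread over the stimulated libraries (64.5, 41.2 and 4.97 TPM). In all, 13 genes that rose had no read in any unstimulated library, among them Dyrk3 (a kinase, at least 31.4-fold), Adora2b (an adenosine receptor, at least 12.01-fold), Tnfrsf21 (at least 11.6-fold), Nppc (at least 8.51-fold) and Vegfa (at least 5.57-fold), and 7 genes that fell had none in any stimulated library. Il2 had 2 reads over the unstimulated and 831 over the stimulated libraries, a ratio of 363 (exact 95% interval 100.2 to 3003, counting error only). Cyp1a1, a detoxifying enzyme and target of the aryl hydrocarbon receptor, rose by 7.15 ± 0.34 (log2 ± SE) from 0.0503, 0.249 and 0.288 TPM to 29.6, 39.1 and 38.95 TPM. Nqo1, a quinone reductase, rose by 5.85 ± 0.41 (0.361, 0.335 and 1.24 TPM to 39.4, 42.2 and 63.6 TPM). The other rises among the 12 largest were those of the chemokines Ccl3 and Ccl4, the isomerase Idi2 (6.88 ± 0.75), the adenylate kinase Ak4 (6.65 ± 0.51), the AP-1 and CREB family members Fosl1 and Atf3, and the cell cycle inhibitor Cdkn1a, which are described with their groups.

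The largest of the 12 named falls was that of Chil5, a chitinase-like gene, which fell 93.3-fold (19.2, 14.9 and 20.7 TPM to 0, 0.119 and 0.647 TPM). Fos and Fosb, AP-1 subunits that are classically induced within minutes of a stimulus, were at 562, 1038 and 466 TPM and 84.8, 149 and 96.9 TPM in unstimulated and at 13.2, 8.87 and 14.9 TPM and 1.57, 2.42 and 1.72 TPM in stimulated cultures. They fell by 72.3-fold (adjusted p 3.3e-06) and 74.8-fold (adjusted p 1.2e-06). No stimulated library came near an unstimulated one. Dusp1, a phosphatase of MAP kinases, fell 21.1-fold (453, 649.5 and 514 TPM to 30.03, 37.96 and 31.1 TPM), and Ppp1r15a, a regulator of eIF2α phosphorylation, 15.6-fold (353, 331 and 289 TPM to 22.5, 29.6 and 28.5 TPM). Among genes of resting T cells, Pik3ip1, an inhibitor of PI3K, went from 89.2, 79.6 and 87.2 TPM to 5.14, 6.74 and 3.93 TPM, and the glucocorticoid-inducible Tsc22d3 (GILZ) from 176, 181 and 221 TPM to 16.2, 15.04 and 14.9 TPM. Cd7 fell, with a log2 fold change of -4.73 ± 0.32, Igfbp4 with -4.32 ± 0.21, Dtx1, a regulator of Notch signalling, with -4.17 ± 0.26, and Rasgrp2, an activator of Rap1 upstream of integrins, with -3.97 ± 0.12. The interferon-inducible Ifit1bl1 (179, 170.4 and 192 TPM to 14.4, 15.6 and 12.8 TPM) completes the 12.

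Beyond single genes, 43 lists of genes by function were followed, and the plot of list members shows them by their median. Each list is given below by how many tested members rose and fell, to be read against 20.9% and 17.6% of all genes tested. Members such as Vegfa (hypoxia response), Tnfrsf21 (TNF receptors) and Adora2b (purinergic) passed the filter on low counts only through the stimulated libraries. Their rises are counted but say nothing about their lists.

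**Figure D3:**
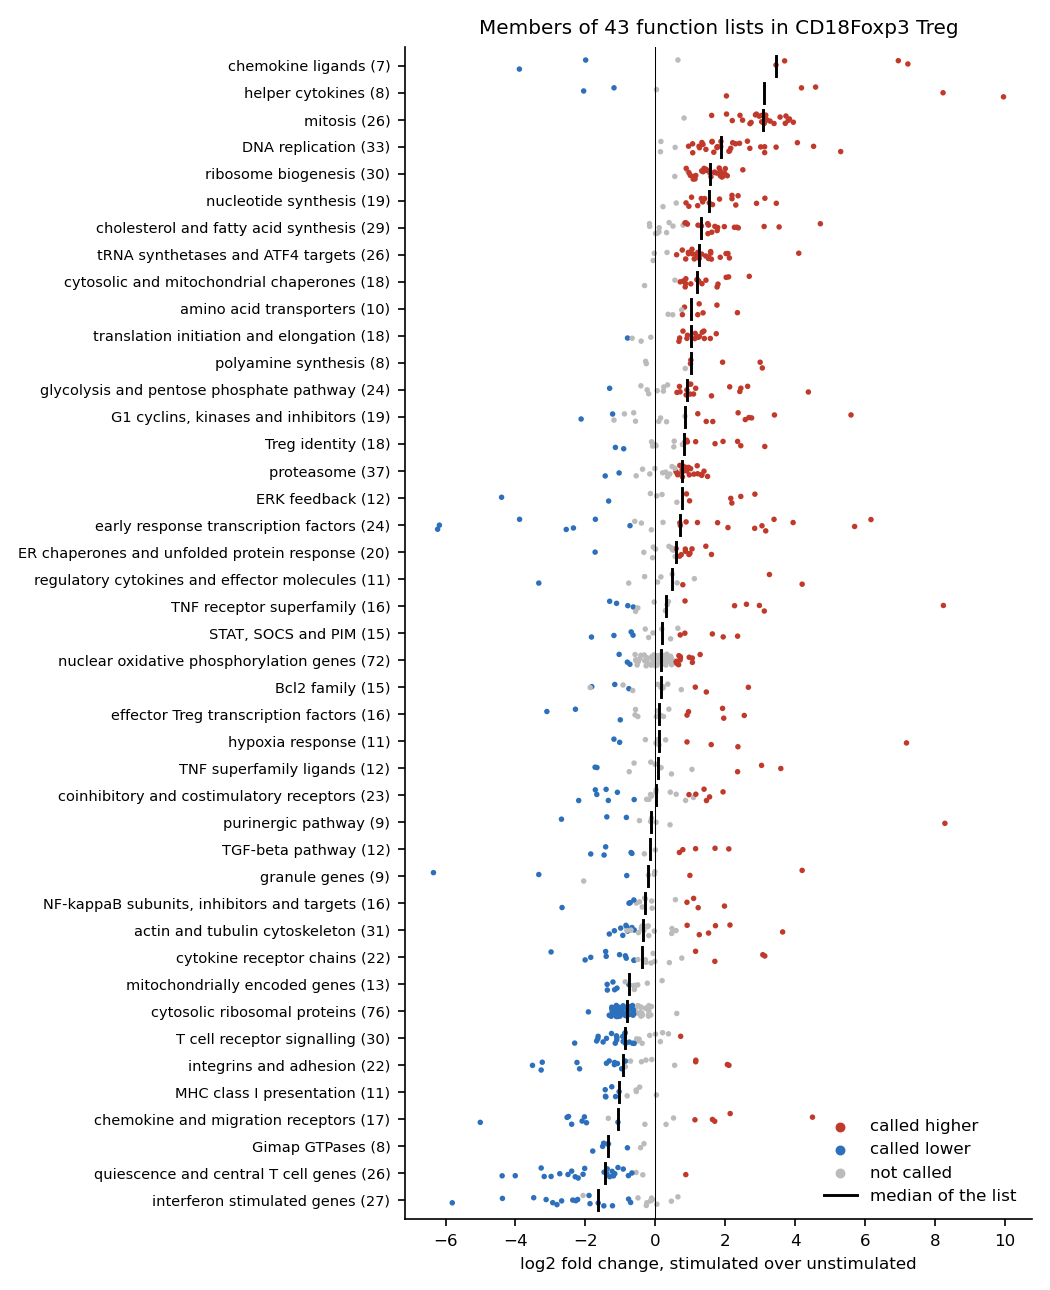
Fitted log2 fold change on stimulation of every tested member (points) of 43 function lists (rows, number tested in parentheses), ordered by the list's median (black bar), in CD18Foxp3 Treg. Nearly all members of the mitosis, DNA replication and ribosome biogenesis lists lie to the right of 0, and most interferon stimulated and quiescence genes to the left. The order of the chemokine ligands and helper cytokines rests on the 7 of 17 and 8 of 15 members that passed the filter on low counts.

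The transcription factors of the early response moved in both directions. Of 24 tested, 13 rose and 7 fell. Irf4, which links the strength of TCR signal to effector Treg programmes, was at 22.2, 21.8 and 19.1 TPM in unstimulated and 507, 404 and 337 TPM in stimulated cultures, a rise of 15.4-fold (adjusted p 1.3e-06). Nr4a3, an orphan nuclear receptor that reports TCR signal, went from 15.1, 15.97 and 14.7 TPM to 195, 163 and 131 TPM, and Nr4a1 from 105, 146 and 128 TPM to 273, 325 and 304 TPM. Myc, the driver of growth metabolism, rose by 1.78 ± 0.14 (69.7, 85.3 and 72.5 TPM to 334, 381 and 295 TPM). Fosl1 rose from 0.657, 0.203 and 0.188 TPM to 31.3, 33.2 and 40.04 TPM and Fosl2 from 3.27, 3.55 and 3.62 TPM to 30.04, 29.9 and 36.5 TPM, while their relatives Fos and Fosb fell. Atf3 rose by 5.702 ± 0.24, Egr2 by 1.21 ± 0.11 and Nfil3 by 0.72 ± 0.16. The Jun genes fell together: Jun from 434, 491 and 582 TPM to 28.8, 58.3 and 45.1 TPM, Junb from 2424, 2416 and 2696 TPM to 239, 709.6 and 723 TPM and Jund (53.6% unique reads) from 987, 1078 and 1108 TPM to 285, 521 and 446 TPM, with stimulated replicate 1 the lowest each time. Egr1, at 93.1, 96.04 and 104 against 153, 144 and 142 TPM, did not pass.

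NF-κB genes moved less. Of 16 subunits, inhibitors and targets, 4 rose and 4 fell. Rel, the c-Rel subunit needed for Treg development, was at 20.9, 24.2 and 19.3 against 141, 103 and 82.96 TPM and rose by 1.98 ± 0.21. Nfkb2, of the noncanonical pathway, rose by 1.097 ± 0.19 and the inhibitor Nfkbid by 1.23 ± 0.16. Tnfaip3 (A20), which shuts NF-κB signalling off, fell, with a log2 fold change of -2.67 ± 0.14 (175, 193 and 205 TPM to 44.8, 36.8 and 34.1 TPM). The list had 1 fall without unstimulated replicate 1 or 3, or with library size alone, and 2 without unstimulated replicate 2 or stimulated replicate 1.

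Genes that mark Treg were more often higher than lower. Of 18 Treg identity genes, 9 rose and 2 fell. Il2ra, the high-affinity chain of the IL-2 receptor (CD25), was at 133, 124 and 107 TPM unstimulated and 1550.0, 1151 and 1414 TPM stimulated, a rise of 8.77-fold (adjusted p 1.8e-06). Ctla4, which takes CD80 and CD86 from antigen-presenting cells, was at 172, 170.0 and 224 against 1131, 739 and 906 TPM and rose 3.83-fold (adjusted p 2.9e-05). In neither gene did the cultures overlap. Lrrc32 (GARP), which holds latent TGF-β at the surface, rose by 1.71 ± 0.11, the TGF-β-activating integrin chain Itgb8 by 1.16 ± 0.16, the STAT5 target Socs2 by 2.35 ± 0.17, the phosphatase Dusp4 by 2.45 ± 0.22 and Ikzf2 (Helios) by 0.897 ± 0.15. Nrp1 (neuropilin-1) fell, with a log2 fold change of -1.14 ± 0.11 and Izumo1r (folate receptor 4) with -0.903 ± 0.11. Foxp3 itself was at 102, 97.3 and 101 TPM unstimulated and 146, 206 and 207 TPM stimulated. These levels did not overlap, and the fitted log2 difference of 0.53 ± 0.14 had an adjusted p of 0.0084 but stayed under the 1.5-fold limit.

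**Figure D4:**
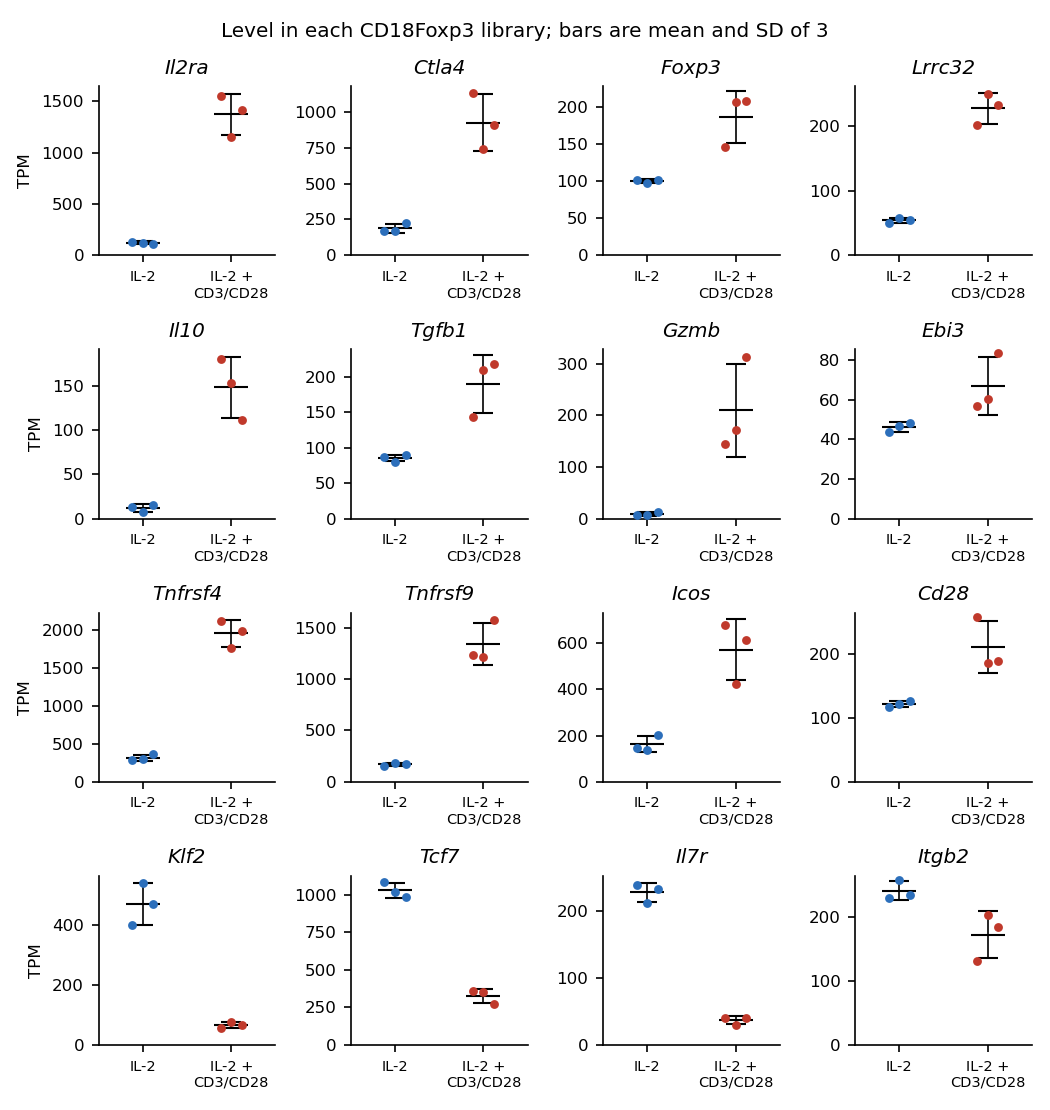
TPM of 16 genes in each CD18Foxp3 library (points), with the mean and SD of 3 replicates (bars), in IL-2 alone (blue) and in IL-2 with anti-CD3 and anti-CD28 (red), each axis starting at 0. Il2ra, Ctla4, Il10, Gzmb, Tnfrsf4 and Tnfrsf9 lie higher and Klf2, Tcf7, Il7r and Itgb2 lower in every stimulated library, while Foxp3, Ebi3 and Cd28 did not pass the threshold.

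Effector Treg transcription factors moved in both directions. Of 16 tested, 5 rose and 3 fell (5 without stimulated replicate 1). Prdm1 (Blimp-1), a driver of IL-10, rose by 0.95 ± 0.14 (11.9, 14.3 and 16.7 TPM to 34.4, 33.1 and 39.1 TPM). Tbx21 (T-bet) rose by 1.96 ± 0.29 with a wide spread in stimulated cultures (39.7, 97.04 and 59.6 TPM, against 10.5, 15.3 and 13.1 TPM). Zbtb32 rose by 2.55 ± 0.35, Hif1a by 0.91 ± 0.14, and Pparg, of fat tissue Treg, by 1.93 ± 0.39 from at most 1.18 TPM. Bcl6, the follicular regulator, fell from 15.1, 20.02 and 12.4 TPM to 4.67, 5.05 and 2.86 TPM and Tox2 from 39.9, 36.2 and 36.96 TPM to 4.08, 7.88 and 5.11 TPM. Ikzf3 (Aiolos) fell, with a log2 fold change of -1.001 ± 0.11. Gata3 (103, 124 and 128 against 169, 153 and 214 TPM) did not pass.

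Among regulatory cytokines and effector molecules, 3 of 11 tested rose and 1 fell. Il10, a suppressive cytokine, was at 13.2, 7.15 and 15.6 TPM unstimulated and 179.8, 153 and 112 TPM stimulated, a rise of 9.61-fold (adjusted p 1.8e-05). Gzmb (granzyme B) was at 6.73, 7.13 and 12.8 against 145, 172 and 313 TPM and rose 18.4-fold (adjusted p 1.4e-05). Both separated the cultures fully. Tgfb1 rose less, by 0.79 ± 0.15 (86.9, 79.9 and 89.3 TPM to 143, 209.9 and 218 TPM). Prf1 (perforin), which lets granzymes into target cells, fell from 18.3, 12.6 and 14.1 TPM to 1.53, 1.32 and 2.95 TPM. Of the 2 genes of IL-35, Ebi3 was at 43.7, 46.9 and 48.5 against 56.8, 60.2 and 83.6 TPM and did not pass, and Il12a had no read in any of the 6 libraries. The wider granule list of 9 tested genes had 2 rises and 3 falls: the granzyme inhibitor Serpinb9 rose with Gzmb, and Gzma (4.04, 3.28 and 8.31 TPM to 0, 0 and 0.194 TPM) and Ctsw fell with Prf1.

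Of 15 helper cytokines listed, 8 could be tested, of which 5 rose and 2 fell, and 7 had reads in too few libraries. Some, such as Il2, Il3 and Csf2, passed the filter on low counts only through the stimulated libraries, so that the count of rises among those tested is not a result about the list. Il2, the T cell growth factor that Treg normally take up rather than make, was at 60.6, 46.9 and 16.04 TPM in stimulated cultures. Csf2 (GM-CSF) was at 0, 0 and 1.61 TPM unstimulated and 14.01, 9.22 and 14.9 TPM stimulated, Il13 at 0.116, 0 and 0.534 against 9.301, 5.82 and 6.16 TPM, and Ifng at 20.99, 18.6 and 17.6 against 65.8, 192 and 47.9 TPM. The list had 3 rises and 1 fall among 11 tested without unstimulated replicate 1 or without unstimulated replicate 2, and 4 rises and 1 fall without unstimulated replicate 3. Il21 (2.398, 2.64 and 2.598 TPM to 0.5403, 1.51 and 0.334 TPM) and Csf1 fell. Among the untested, Il17a had 283, 62 and 0 reads and Il17f 200, 27 and 1 reads in the stimulated libraries 1 to 3, against none in the unstimulated, so that nearly all of their signal came from 2 of the 3 stimulated libraries.

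Of 17 chemokine ligands listed, 7 passed the filter on low counts, of which 4 rose and 2 fell. Some, such as Ccl3 and Ccl4 (at most 11 and 10 reads in an unstimulated library), passed it only through the stimulated libraries. The count of rises among those tested is therefore not a result about the list. Ccl3 and Ccl4, inflammatory chemokines, were at 2.01, 0 and 0.6296 TPM and 2.12, 0 and 2.44 TPM in unstimulated and at 205, 169 and 186 TPM and 298, 299 and 168 TPM in stimulated cultures. They rose by 7.23 ± 0.46 and 6.95 ± 0.498. Ccl1, a ligand of Ccr8, rose by 3.70 ± 0.44 from under 1 TPM in every unstimulated library to 11.1, 14.1 and 6.43 TPM. Cxcl2, a neutrophil attractant, was at 0.678, 0.168 and 0.311 against 7.94, 1.57 and 7.46 TPM. Ccl5 (RANTES) fell from 68.8, 64.9 and 100.5 TPM to 8.22, 3.37 and 8.54 TPM, and the interferon-inducible Cxcl10 from 17.5, 17.5 and 17.1 TPM to 6.52, 6.95 and 3.29 TPM.

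The upstream sequences of Il2 and Ccl3 are shown because these 2 genes were among the most strongly raised and belong to the NFAT-driven cytokine and chemokine genes. They are the 250 bases before the RefSeq start on the minus strand (GRCm38.p6), chr3:37125955-37126204 for Il2 and chr11:83649379-83649628 for Ccl3, written 5′ to 3′ on the strand of the gene. Capitals mark the NFAT core GGAAAA, which also reads TTTTCC on the other strand.
Il2: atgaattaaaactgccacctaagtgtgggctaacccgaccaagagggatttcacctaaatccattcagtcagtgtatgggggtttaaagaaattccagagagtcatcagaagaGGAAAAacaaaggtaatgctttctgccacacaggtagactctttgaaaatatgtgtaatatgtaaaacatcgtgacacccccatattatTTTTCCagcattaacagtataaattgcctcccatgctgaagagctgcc
Ccl3: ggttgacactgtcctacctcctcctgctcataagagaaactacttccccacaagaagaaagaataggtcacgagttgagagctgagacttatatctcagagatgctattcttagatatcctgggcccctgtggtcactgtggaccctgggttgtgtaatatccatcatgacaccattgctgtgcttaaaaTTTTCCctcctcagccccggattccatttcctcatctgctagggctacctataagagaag
Such a core is common. Of 12019 genes tested, 9245 (76.9%) matched a RefSeq promoter, and GGAAAA stood on either strand of the same 250 bases in 18.4% of them, in 18.5% of the 2023 genes that rose and in 17.7% of the 1642 that fell. The AP-1 site TGACTCA was found in 2.73% of all, 2.27% of risen and 3.11% of fallen genes, and the CRE TGACGTCA in 2.81%, 2.72% and 2.19%. The NF-κB sites GGACTTTCC or GGAATTTCC were in 0.681%, 0.692% and 1.22%. The ETS site CCGGAAGT was in 6.64% of all, 7.32% of risen and 3.59% of fallen genes. A match describes these letters in this window and no more.

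Receptors for migration turned over. Of 17 tested, 5 rose and 8 fell. Ccr8, a receptor of activated and tissue Treg, was at 73.2, 87.4 and 93.4 against 501, 363 and 576 TPM, a rise of 2.14 ± 0.19. Ccr4 rose by 1.70 ± 0.18 and Cxcr6 by 1.64 ± 0.205, each without overlap. The receptors that take T cells into and through lymphoid organs fell. Ccr7 was at 331, 345 and 270.1 against 221, 209 and 152 TPM, S1pr1, the exit receptor for lymph and blood, at 403, 435 and 407 against 91.2, 104 and 111 TPM, Cxcr5, the follicular receptor, at 56.99, 59.6 and 38.2 against 12.6, 14.04 and 9.08 TPM, and Cxcr4 at 420.04, 651 and 429 against 131, 114 and 91.4 TPM. The type 1 receptor Cxcr3 fell, with a log2 fold change of -2.03 ± 0.12 (228, 221 and 234 TPM to 60.6, 81.7 and 74.0 TPM) and Ccr9, of gut homing, with -5.01 ± 0.38 from at most 3.31 TPM. Without unstimulated replicate 1, unstimulated replicate 2 or stimulated replicate 2, the list had 3 rises.

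Adhesion genes fell more often than they rose, the deleted gene among them. Of 22 integrins and adhesion molecules tested, 4 rose and 12 fell. Itgb2 fell, with a log2 fold change of -0.85 ± 0.15 (adjusted p 0.0011) and its partner Itgal with -1.16 ± 0.11 (adjusted p 2.6e-05), from 402, 423 and 397 TPM to 205, 258 and 241 TPM. In TPM the fall of Itgb2 was smaller, from 240 ± 15.0 to 172 ± 36.7 (mean ± SD, n = 3), with stimulated replicate 1 the lowest. Itgb7, the chain of gut-homing integrins, fell from 954, 909 and 1133 TPM to 149, 338 and 334 TPM, and its partner Itga4 from 102, 104 and 99.7 TPM to 55.3, 56.7 and 37.5 TPM. The other partner of Itgb7, Itgae (CD103), was at 52.9, 46.02 and 85.3 against 26.9, 21.8 and 81.7 TPM, with the cultures overlapping. Itgav (14.2, 16.04 and 13.6 TPM to 91.6, 68.6 and 75.5 TPM) and Itgb8, which pair to activate TGF-β, both rose, as did Alcam, a ligand of CD6, by 2.11 ± 0.13 and Itga5 by 1.16 ± 0.28. Itgax had no read in any of the 6 libraries and Itgam was at most at 0.960 TPM, so that of these β2 partners only Itgal had more than a trace of mRNA.

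Inside the cell, the cytoskeleton list had 6 rises and 9 falls among 31 genes (5 falls without unstimulated replicate 3). The rises were tubulins and lamin B1: Tubb5 rose by 0.91 ± 0.11, Tubb6 by 3.64 ± 0.35, Tubb4b by 1.52 ± 0.17 and Lmnb1 by 1.26 ± 0.21, with Tuba1b and Tuba1c counted largely from shared reads. Coro1a, an actin regulator of lymphocytes, fell from 2240.5, 2315 and 2505 TPM to 743, 1442 and 1485 TPM. Talin (Tln1), Rassf5 and Apbb1ip, which carry Rap1 signals to LFA-1, fell, with a log2 fold change of -0.79 ± 0.17, -0.99 ± 0.101 and -0.84 ± 0.13. Actb was at 6992 ± 60.1 TPM and 7115 ± 169.6 TPM and did not pass.

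Genes of quiescence and of central T cells fell. Of 26 tested, 23 fell and 1 rose, with a median log2 fold change of -1.43. Klf2, the factor that holds T cells in a quiescent and recirculating state, was at 398, 539 and 469 against 57.3, 76.8 and 66.6 TPM and fell 9.05-fold (adjusted p 1.4e-06). Its target S1pr1 is given above. Tcf7 (TCF-1) fell from 1086, 1019 and 983 TPM to 359, 351 and 271 TPM, Il7r, the receptor of a survival cytokine, from 239.9, 213 and 232 TPM to 40.6, 29.98 and 40.9 TPM, and Satb1 from 43.3, 40.1 and 45.3 TPM to 14.8, 9.63 and 11.4 TPM. The antiproliferative genes Btg1, Btg2, Tob1 and Pdcd4 fell, with a log2 fold change of -2.06 ± 0.15, -1.39 ± 0.12, -1.195 ± 0.15 and -2.29 ± 0.11. Txnip, an inhibitor of glucose uptake, fell, with a log2 fold change of -2.73 ± 0.12, Foxo1 with -1.23 ± 0.13 and Ets1 with -1.46 ± 0.09. Bach2, a repressor of effector genes, was the exception and rose by 0.87 ± 0.17 (14.6, 13.02 and 14.4 TPM to 36.5, 38.4 and 24.2 TPM), a call that was lost without unstimulated replicate 2 or 3. The Gimap GTPases, which support the survival of resting lymphocytes, had 6 falls among 8, of which Gimap3 (1277, 1260.2 and 1222 TPM to 534, 631 and 542 TPM) was among the most abundant.

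Genes of the TCR pathway itself were mostly lower in stimulated cultures. Of 30 tested, 20 fell and 1 rose. Cd3d fell from 892, 959 and 1006 TPM to 393, 400.2 and 383 TPM, Cd3g with -1.49 ± 0.13, Cd3e with -0.92 ± 0.11 and Cd247, the ζ chain, with -1.14 ± 0.09. Cd4 fell, with a log2 fold change of -1.25 ± 0.11 and the kinase Lck that it carries with -0.93 ± 0.13. Further down, Prkcq (PKCθ) fell, with a log2 fold change of -1.63 ± 0.11 and Themis with -2.31 ± 0.15. Brakes of the pathway fell too: the diacylglycerol kinases Dgka and Dgkz with -1.68 ± 0.11 and -1.11 ± 0.18, the phosphatase Ptpn22 with -0.75 ± 0.13 and the ubiquitin ligase Cblb with -1.095 ± 0.15. Malt1, the paracaspase, was the 1 gene that rose (0.73 ± 0.14), a call lost when any unstimulated library or stimulated replicate 1 was left out. Zap70 was at 353, 369 and 401 against 229, 433 and 391 TPM and did not pass. With limma on log2 TPM, 10 of the 30 fell and 2 rose.

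ERK feedback regulators were mixed, with 6 rises and 2 falls of 12 tested. The nuclear ERK phosphatases Dusp4 (29.5, 49.5 and 33.03 TPM to 201, 302 and 286 TPM) and Dusp5 (0.98 ± 0.17) rose, as did Spred1 (2.19 ± 0.202) and Dusp16 (2.16 ± 0.17), whereas Dusp1 and Dusp10 fell. Of 15 STAT, SOCS and PIM genes, 5 rose and 4 fell. The STAT5 targets Cish (50.1, 57.4 and 57.95 TPM to 199, 226 and 237 TPM), Socs2 and Socs1 (1.94 ± 0.22) rose with Stat5a (0.71 ± 0.12), and the STAT3 target Socs3 fell (179, 137 and 155 TPM to 33.5, 66.2 and 72.9 TPM).

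Cytokine receptor chains fell more often than they rose. Of 22 chains tested, 4 rose and 10 fell. Il2ra rose as above, Il2rb was at 480.4, 516 and 521 against 548, 687 and 704 TPM and did not pass, and the common γ chain Il2rg fell, with a log2 fold change of -0.61 ± 0.11 (53.3% unique reads). Il12rb1 rose from 23.5, 25.5 and 32.03 TPM to 72.5, 134 and 134 TPM and Il12rb2 by 3.08 ± 0.62, from at most 0.185 TPM. Il7r, Il6ra (-2.01 ± 0.14), Il6st, Il17ra, Il18r1, Il21r and Il27ra fell. Of the TGF-β receptors, Tgfbr1 rose by 1.15 ± 0.14 and Tgfbr2 and Tgfbr3 fell, with a log2 fold change of -1.42 ± 0.104 and -1.85 ± 0.23. In the TGF-β list of 12 as a whole, 5 rose and 5 fell (3 without unstimulated replicate 1): the protease Furin (2.103 ± 0.29), the inhibitor Skil, Tgfb1 and Lrrc32 rose with Tgfbr1, while the feedback inhibitor Smad7, with Smad4 and Ski, fell.

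Of 16 receptors of the TNF family tested, 6 rose and 4 fell. Among the rises, Tnfrsf21 was tested only through its stimulated reads. Tnfrsf4 (OX40) was at 283, 303 and 361 against 2115, 1753 and 1982 TPM and rose 4.82-fold (adjusted p 2.9e-06). Tnfrsf9 (4-1BB) was at 156, 179.9 and 177 against 1236, 1211 and 1575 TPM and rose 6.098-fold (adjusted p 1.9e-06). Tnfrsf8 (CD30) rose by 2.98 ± 0.28, the death receptor Tnfrsf10b by 3.12 ± 0.16 and Tnfrsf18 (GITR) by 0.85 ± 0.14. Cd27, which marks resting T cells, fell, with a log2 fold change of -1.305 ± 0.103. Tnfrsf1a, Tnfrsf14 and Tnfrsf26 also fell, and the list had 2 falls without unstimulated replicate 1 or 2 or stimulated replicate 3. Of 12 ligands, 3 rose and 2 fell. Lta (lymphotoxin α) was at 42.2, 40.6 and 41.4 against 421, 543 and 354 TPM, Tnf at 23.3, 28.7 and 26.5 against 177, 193 and 146 TPM, and Tnfsf4, the ligand of OX40, at 0.989, 0.848 and 1.05 against 19.5, 14.6 and 11.02 TPM. Ltb, the partner of Lta, fell from 1259.5, 1278 and 1267 TPM to 229, 753 and 574 TPM. Without unstimulated replicate 2 or 3, the ligands had 1 fall.

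Of 23 coinhibitory and costimulatory receptors and ligands, 6 rose and 7 fell. Icos, the CD28 relative of effector Treg, was at 146, 138 and 202 against 677, 424 and 613 TPM and rose by 1.46 ± 0.21. The PD-1 ligands Cd274 and Pdcd1lg2 rose by 0.96 ± 0.16 and 1.395 ± 0.15, and Cd200 with its receptor Cd200r1 by 1.55 ± 0.16 and 1.16 ± 0.16. Lag3 fell from 129, 101 and 153 TPM to 53.7, 74.5 and 66.6 TPM, Cd96 from 253, 267 and 252 TPM to 114, 92.5 and 96.02 TPM, Cd86 with -1.67 ± 0.26 and Slamf6 with -1.41 ± 0.15. Pdcd1 (PD-1) at 256, 266 and 284 against 237, 337 and 301 TPM, Tigit at 722, 684 and 827 against 1020.3, 826 and 1051 TPM and Cd28 at 118, 122 and 127 against 259, 186 and 189 TPM did not pass.

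The machinery that makes ribosomes rose while the mRNAs of the ribosome's own proteins fell. Of 30 ribosome biogenesis genes, 28 rose and none fell, with a median of 1.58. Nop56, of the small nucleolar RNP, was at 59.8, 63.9 and 54.7 against 309, 322 and 291 TPM, the RNA polymerase I subunit Polr1b at 14.6, 14.2 and 15.7 against 69.7, 72.9 and 60.8 TPM, and nucleostemin (Gnl3) at 11.2, 11.8 and 9.41 against 96.4, 77.6 and 62.6 TPM. Nucleolin (Ncl) rose by 1.396 ± 0.10, Nolc1 by 1.99 ± 0.13 and Dkc1 by 1.902 ± 0.15. Of 76 cytosolic ribosomal proteins, 54 fell and none rose, with a median of -0.81, and the list held 15.98% to 16.4% of TPM in stimulated against 22.1% to 23.5% in unstimulated libraries. Rplp0, for example, went from 7329.5, 7589.6 and 7501 TPM to 5004, 5916 and 6179.9 TPM, Rpl39 from 2159, 2173 and 2029.6 TPM to 1624, 1137 and 1147 TPM and Rps29 from 4042, 4323 and 4099 TPM to 3131, 2379.9 and 2304 TPM. The direction of the median held under every scaling tried, but 41 of 76 fell with library size alone, and 29 fell and 1 rose with limma on log2 TPM. Rpl3, at 2297, 2348 and 2372 against 1853, 2109 and 2128 TPM, did not pass. Many ribosomal protein reads are shared with pseudogenes, with only 0.559% of them unique for Rps27.

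Most translation factors rose as well. Of 18 initiation and elongation factors, 14 rose and 1 fell. Eif4a1, the initiation helicase, was at 343, 339.8 and 348 against 1086, 1040.5 and 1058 TPM, the cap-binding Eif4e at 36.9, 35.8 and 36.4 against 146, 108 and 102 TPM, and Eif2s1 rose by 1.404 ± 0.15. The abundant Eef1a1 was the 1 that fell (-0.79 ± 0.098), and with limma on log2 TPM 14 rose and none fell. Of 26 tRNA synthetases and targets of Atf4, 23 rose and none fell. Asns (asparagine synthetase) went from 1.74, 1.396 and 3.06 TPM to 47.7, 41.4 and 47.8 TPM, the serine synthesis genes Psat1 and Phgdh rose by 2.12 ± 0.14 and 1.58 ± 0.19, the one-carbon enzyme Shmt2 by 2.02 ± 0.15, Iars by 2.08 ± 0.11 and Atf4 itself by 0.77 ± 0.103. Of 10 amino acid transporters, 7 rose and none fell. Slc7a5 (LAT1, for large neutral amino acids) was at 28.9, 32.1 and 29.4 against 189, 211 and 195 TPM and rose 5.099-fold (adjusted p 1.3e-06). Slc7a1, for arginine and lysine, rose by 1.76 ± 0.11 and Slc38a1, for glutamine, by 1.26 ± 0.098.

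Genes of nucleotide and polyamine synthesis also rose. Of 19 nucleotide synthesis genes, 17 rose and none fell. Ctps (CTP synthase) was at 13.3, 11.5 and 11.7 against 125, 121 and 104 TPM and Rrm2, the regulated subunit of ribonucleotide reductase, at 12.2, 12.4 and 28.3 against 249.8, 215 and 279.9 TPM. Cad, which starts pyrimidine synthesis, rose by 2.19 ± 0.16, Impdh2, of GTP synthesis, by 1.41 ± 0.101, Paics by 1.04 ± 0.13, Atic by 0.88 ± 0.101, Tyms by 2.37 ± 0.18 and Nme1 by 1.64 ± 0.11. Of 8 polyamine genes, 5 rose and none fell. Odc1, the rate-limiting enzyme, was at 132, 136 and 142 against 1385, 1411 and 1426 TPM, a 7.998-fold rise (adjusted p 3.2e-07), and Srm (spermidine synthase) rose 8.35-fold (33.8, 34.1 and 34.5 TPM to 347, 413 and 342 TPM).

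Nucleotide synthesis genes are known targets of Myc, which binds the E-box CACGTG, so the E-box windows of the list are shown. Of the 16 members with a matched promoter, 5 held CACGTG (the same on both strands) in the 250 bases before the start, against 8.63% of all 9245 promoters, 9.64% of risen and 7.73% of fallen genes. All 5 genes rose, as did 17 of the 19 tested in the list, so that their rise says nothing about the E-box. Each window runs 5′ to 3′ on the strand of the gene (GRCm38.p6, RefSeq), at chr1:71557129-71557155 on the plus strand, chr9:108560306-108560351 on the plus strand, chr11:93968273-93968310 on the minus strand, chr5:76951079-76951124 on the plus strand and chr5:30073661-30073706 on the minus strand, with the E-box in capitals.
Atic: gaggggcgggacctcggggtCACGTGg
Impdh2: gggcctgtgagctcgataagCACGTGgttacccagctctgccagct
Nme1: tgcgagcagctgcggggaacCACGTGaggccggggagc
Paics: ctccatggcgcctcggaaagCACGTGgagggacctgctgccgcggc
Tyms: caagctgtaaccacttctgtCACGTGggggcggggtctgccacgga
Among the lists scanned, nucleotide synthesis had the largest share. In the ribosome biogenesis list 2 of 25 promoters held it, in the polyamine list 1 of 6 and in the quiescence list 0 of 21. The share was 2 of 27 for DNA replication, 1 of 21 for mitosis and 1 of 13 for cytosolic and mitochondrial chaperones. It was 2 of 18 for tRNA synthetases and Atf4 targets, 4 of 56 for ribosomal proteins and 0 of 22 for interferon stimulated genes. Binding was not measured here.

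Sterol and lipid synthesis rose in part. Of 29 tested, 19 rose and none fell. Idi1 was at 16.4, 17.3 and 18.99 against 299, 232 and 256 TPM, Cyp51 at 14.3, 14.1 and 16.97 against 181, 161 and 164 TPM, and squalene epoxidase (Sqle) at 8.84, 8.76 and 6.64 against 47.4, 53.7 and 49.2 TPM. Hmgcs1, an early enzyme of the pathway, rose by 1.79 ± 0.104, the LDL receptor by 1.22 ± 0.15 and fatty acid synthase (Fasn) by 1.705 ± 0.18. The SREBP genes that drive the pathway, Srebf1 (48.6, 49.03 and 50.96 against 39.5, 67.03 and 64.8 TPM) and Srebf2 (90.4, 94.4 and 92.6 against 133, 192 and 184 TPM), did not pass.

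Glycolysis rose broadly. Of 24 genes of glycolysis and the pentose phosphate pathway, 16 rose and 1 fell. Hk2, the inducible hexokinase, was at 1.88, 1.95 and 2.53 against 46.8, 59.95 and 63.7 TPM and rose 20.8-fold (adjusted p 6.2e-07), while the constitutive Hk1 was at 64.1, 65.8 and 70.7 against 56.6, 104 and 108 TPM and did not pass. The lactate exporter Slc16a1 rose by 2.64 ± 0.14, Pgam1 by 2.45 ± 0.13, Tpi1 by 2.42 ± 0.19, Pgk1 by 1.61 ± 0.11 and Ldha by 1.16 ± 0.13. Of the glucose transporters, Slc2a1 (GLUT1) rose from 35.9, 37.6 and 41.1 TPM to 87.9, 108 and 119 TPM and Slc2a3 (GLUT3) fell from 30.4, 35.3 and 36.1 TPM to 17.3, 19.4 and 16.3 TPM. Of 11 hypoxia response genes, 4 rose and 2 fell: Hif1a, Egln3 (1.601 ± 0.22), Vegfa and Bnip3 (40.1% unique reads) rose, and Pdk1 and Bnip3l fell, with a log2 fold change of -1.02 ± 0.12 and -1.18 ± 0.14. Vegfa was tested only through its stimulated reads.

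Of 72 nuclear genes of oxidative phosphorylation, 13 rose and 3 fell. The count depended on the scaling, with 19 rises with library size alone and 30 and 31 with limma at the 2 pseudocounts, of 3158, 3783 and 3817 over all genes. The list held 1.25% to 1.38% of TPM in unstimulated and 1.74% to 1.80% in stimulated libraries. Without unstimulated replicate 2, 7 rose, and 5 fell without unstimulated replicate 1 or without stimulated replicate 1. Cox5a rose by 1.06 ± 0.13, Ndufa12 by 1.28 ± 0.14 and Atp5g1 by 1.06 ± 0.11, and Cox4i1, Ndufa6 and Uqcrh fell. Of the 13 mitochondrially encoded mRNAs, 6 fell and none rose. They held 10.3% to 13.2% of TPM in unstimulated and 6.40% to 10.3% in stimulated libraries, the last being stimulated replicate 1. mt-Co1 was at 25902, 22576 and 19784 against 16418, 11536 and 11238 TPM, and mt-Atp6 at 21345, 20114 and 17217 against 12873, 8085 and 8055 TPM. Without stimulated replicate 1, 12 of the 13 fell. mt-Nd1 was higher in every stimulated library (5291, 4622 and 4396 TPM to 9471, 5668 and 5865 TPM) but did not pass.

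Protein folding and turnover rose with synthesis. Of 18 cytosolic and mitochondrial chaperones, 16 rose and none fell. Hspd1, the mitochondrial HSP60, was at 148, 162 and 168 against 1440.2, 1338 and 1178 TPM, Hspa9 at 121, 121 and 119.6 against 746, 633 and 613 TPM, and Hsp90aa1 at 277, 295 and 278 against 1756, 1361 and 1337 TPM. The chaperonin subunits rose too, Cct6a by 1.77 ± 0.12 and Tcp1 by 1.45 ± 0.11. Of 20 genes of the endoplasmic reticulum, 10 rose and 1 fell: Sdf2l1 rose by 1.61 ± 0.25, Ero1l by 1.45 ± 0.14 and Xbp1 by 0.86 ± 0.104, and Dnajb9 fell, with a log2 fold change of -1.72 ± 0.17. Of 37 proteasome subunits, 24 rose and 2 fell. Psmd1 rose by 1.496 ± 0.11, Psmd7 by 1.39 ± 0.11 and Psma5 by 1.33 ± 0.13. The 2 falls were those of the immunoproteasome subunits Psmb10 and Psmb9 (-1.43 ± 0.27 and -1.03 ± 0.25), with stimulated replicate 1 the lowest in both. Without any one of the unstimulated replicates, the list had 1 fall.

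Cell cycle genes rose. Of 26 mitosis genes, 25 rose and none fell, with a median of 3.08. Mki67 was at 6.34, 5.62 and 12.8 against 67.9, 74.9 and 88.6 TPM, Top2a at 9.58, 8.07 and 20.3 against 126, 122.9 and 150.5 TPM, and Cdk1 at 1.68, 1.13 and 4.11 against 43.9, 37.3 and 55.4 TPM, without overlap. Unstimulated replicate 3 was the highest of the unstimulated libraries in each. Ccnb2 (11.1, 10.8 and 37.8 against 28.4, 43.8 and 63.0 TPM) overlapped and did not pass, and 17 of 26 rose without stimulated replicate 1. Of 33 replication genes, 30 rose and none fell. Mcm5, of the replicative helicase, was at 43.5, 42.6 and 55.6 against 221, 299.9 and 326 TPM, the licensing factor Cdc6 at 1.31, 0.995 and 2.06 against 33.03, 29.2 and 31.9 TPM, Orc1 at 0.161, 0.399 and 1.16 against 32.3, 24.6 and 29.02 TPM, and Uhrf1, which maintains DNA methylation, at 9.05, 9.003 and 15.6 against 119.98, 169.7 and 185 TPM. Of 19 G1 genes, 9 rose and 2 fell (4 without stimulated replicate 3). The cyclins Ccnd2, Ccne1 and Ccne2 rose by 1.46 ± 0.11, 2.75 ± 0.27 and 3.41 ± 0.35, and their kinases Cdk4 and Cdk6 by 1.22 ± 0.11 and 2.37 ± 0.14. Of the inhibitors, p27 (Cdkn1b) and p19 (Cdkn2d) fell, with a log2 fold change of -1.22 ± 0.104 and -2.12 ± 0.199, while p21 (Cdkn1a) rose from 1.89, 2.64 and 2.67 TPM to 117, 145 and 186 TPM, 48.5-fold (adjusted p 6.5e-07).

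Most interferon stimulated genes fell, but their summed level did not. Of 27 tested, 17 fell and none rose (2 rose without stimulated replicate 3), with a median of -1.63. The list held 0.216% to 0.251% of TPM in unstimulated and 0.207% to 0.287% in stimulated libraries. Isg15 was at 81.2, 72.8 and 73.1 against 8.35, 18.6 and 11.6 TPM, Irf7, the master regulator of type I interferon responses, at 37.4, 32.3 and 37.5 against 4.097, 11.4 and 6.26 TPM, and Ifit1 at 32.4, 29.3 and 25.2 against 5.47, 5.42 and 1.84 TPM. Rsad2 (viperin) fell, with a log2 fold change of -4.37 ± 0.35 and Usp18 with -2.27 ± 0.17. The 10 that did not pass included the guanylate-binding and immunity-related GTPases Gbp2, Gbp3, Gbp7, Irgm1, Irgm2, Igtp and Iigp1. Gbp2 was at 236, 209 and 266 against 398, 535 and 329 TPM. MHC class I presentation fell as well, in 6 of 11 genes tested with no rise. B2m was at 10981, 11168 and 10794 against 7916, 5747 and 5578 TPM and fell, with a log2 fold change of -1.14 ± 0.15, H2-K1 with -1.43 ± 0.19 (4926, 4934 and 5156 TPM to 1591, 2895 and 2746 TPM), H2-D1 with -1.41 ± 0.203 and Tapbp with -1.24 ± 0.18.

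Genes of the Bcl2 family, which set survival, were mixed. Of 15 tested, 3 rose and 3 fell. Bcl2l1 (Bcl-xL) was at 19.3, 20.5 and 21.8 against 136, 179 and 188 TPM, a rise of 6.33-fold (adjusted p 1.8e-06). Bcl2 fell from 65.7, 68.04 and 63.7 TPM to 40.5, 41.9 and 31.5 TPM, Mcl1 with -0.76 ± 0.11, and Bim (Bcl2l11), which promotes death, from 27.1, 25.98 and 32.2 TPM to 11.8, 11.9 and 7.32 TPM. Bax and Bcl2l2 rose by 1.14 ± 0.24 and 1.46 ± 0.25. Among 9 purinergic genes, 1 rose (Adora2b, tested only through its stimulated reads) and 3 fell. The ectoenzymes with which Treg make adenosine, Entpd1 (CD39, 20.02, 21.7 and 19.04 against 25.8, 24.3 and 29.4 TPM) and Nt5e (CD73, 74.1, 79.01 and 76.5 against 93.8, 93.5 and 87.2 TPM), did not pass. Of the adenosine receptors, Adora2b came on (3.17, 3.803 and 4.97 TPM) and Adora2a fell, with a log2 fold change of -0.83 ± 0.19, and the ATP receptor P2rx7, whose opening kills Treg, fell from 72.5, 87.7 and 82.1 TPM to 15.7, 19.5 and 13.4 TPM.

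Whether the response differed from that of Treg with intact CD18 was asked last. The same test in the 6 CD18wt libraries called 4013 of 11930 genes (33.6%), 2234 higher and 1779 lower. These libraries held 10665174 to 18065610 exon reads. Some large changes did not pass there, such as Fos at -6.96 and Dusp1 at -5.17 (log2, adjusted p 0.035 and 0.039 in edgeR's test). The number of calls therefore does not measure the size of the response in either genotype. Of 11693 genes tested in both genotypes, 4567 were called in CD18Foxp3 and 3981 in CD18wt Treg, and 3437 in both, each of them in the same direction (75.3% of the former and 86.3% of the latter). Of the 4567 calls in CD18Foxp3 Treg, 4556 (99.8%) had the same sign in CD18wt Treg. Across these genes, which are not independent of each other, the log2 fold changes had a Pearson correlation of 0.919 and a major axis slope of 1.03. The difference between the responses was tested as the interaction of genotype and culture over all 12 libraries. None of 12636 genes passed in edgeR's quasi-likelihood test (smallest adjusted p 0.556), 485 had an unadjusted p under 0.05, and DESeq2 called 1 gene, Mamdc4. That does not show the responses to be equal.

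Gene by gene, Il2ra rose by 3.13 in CD18Foxp3 and by 2.27 in CD18wt Treg (log2), a difference of 0.85 ± 0.22 (SE) with an unadjusted p of 0.0012 and an adjusted p of 0.847 in edgeR's test of the interaction. Ctla4 rose by 1.94 and was at 1.02 in CD18wt Treg, a difference of 0.91 ± 0.42. Il10 was at 3.27 and 2.69 (difference 0.57 ± 0.42), Gzmb at 4.201 and 3.52 (0.68 ± 0.46), Tnfrsf4 at 2.27 and 1.89 (0.37 ± 0.19) and Irf4 at 3.94 and 3.67 (0.27 ± 0.26). Klf2 fell, with a log2 fold change of -3.18 and -2.99 (-0.19 ± 0.49). Itgb2 was at -0.85 and -0.77, a difference of -0.09 ± 0.198, from levels that differed before stimulation, and Itgal at -1.16 and -1.102. These genes are examples, and their signs do not describe the response as a whole. Among the 12 largest rises the difference was negative for Ccl3 (-1.24 ± 1.42), Ccl4 (-0.44 ± 1.15), Idi2 (-3.18 ± 2.16) and Cdkn1a (-0.17 ± 0.35). It was positive for the others, among them Il3, whose sign carries no information (0.848 with an SE of 2845). These 12 genes were chosen by their rise in CD18Foxp3 Treg, which by itself tilts the difference to positive values. The signs are therefore not a result. None of these differences passed the adjusted threshold.

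**Figure D5:**
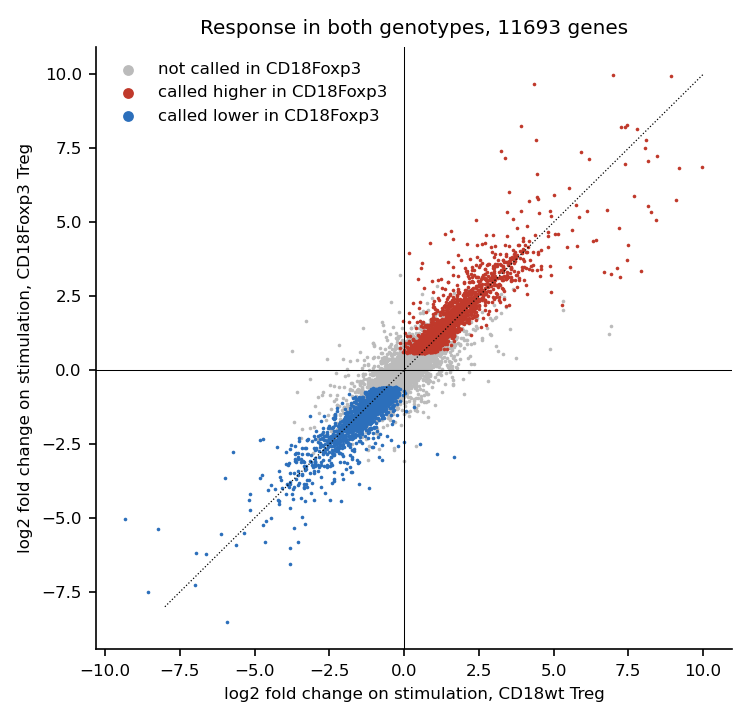
Fitted log2 fold change on stimulation in CD18Foxp3 Treg (vertical) against that in CD18wt Treg (horizontal) for the 11693 genes tested in both, 3 against 3 libraries each, with the dotted line marking equal change. Genes called higher (red) and lower (blue) in CD18Foxp3 Treg lie along the line, with 4556 of 4567 on the same side of 0 in CD18wt Treg.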

How the data were processed

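Poly(A) RNA was sequenced as single 59-base reads after 15 cycles of PCR. The authors trimmed and mapped the reads to GRCm38 in CLC Genomics Workbench with default settings and deposited, for each library, counts of exon reads for 41457 genes. The deposited counts are not normalized and include reads placed at several loci, about 93% being unique. TPM were recomputed from counts and deposited exon lengths.

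Total exon counts of the 6 CD18Foxp3 libraries were fitted with edgeR 4.0.16 in R 4.3.3 (filterByExpr with a minimum count of 10, TMM, robust quasi-likelihood F-test, Benjamini-Hochberg adjustment). Genes were called at an adjusted p up to 0.01 if they changed 1.5-fold or more. The interaction was fitted over 12 libraries. Alternatives were DESeq2 1.42.0, limma 3.58.1 and those named in the closing section. The stimulation fit was also run on simulated counts in which only a small part of the genes changed, so that run does not test the scaling. At 15337271 to 19005482 reads, intervals and floors cover counting error only, since the reads carry no molecular identifiers. In the main fits, p-values rest on the spread between 3 samples a group, moderated across genes, with the cultures taken as unpaired. The interaction takes 1 spread for all 4 groups.

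Named genes were the 12 largest rises and falls among called genes at 10 TPM or more whose cultures did not overlap, with at least 50% unique reads and a named symbol, the 8 largest rises and falls in TPM, Itgb2 and Itgal, examples from each list, and the study's cytokines. Members and lists were chosen with earlier results of these data known. Promoter sequences are from RefSeq (GRCm38.p6). CD18wt libraries enter only the comparison of genotypes. Some genes are not reported here.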

Additional observations from a re-analysis of the deposited data

How the results depend on the processing

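No gene called in the report was called in the opposite direction under any alternative of the stimulation test. The calls were 4636 (2516 higher, 2120 lower), 3591 to 4889 when 1 library was left out (1973 to 2571 higher and 1618 to 2318 lower), 5070 with DESeq2 and 2993 (1636 higher, 1357 lower) at a fold of at least 2. Limma on log2(TPM + 1) called 3783 higher and 1201 lower, and on log2(TPM + 0.1) 3817 and 1180. The median of all genes moved from 0.01 to 0.19 with library size alone and to 0.31 and 0.35 on log2 TPM. There the medians of the TGF-β, purinergic, NF-κB, cytoskeleton and granule lists changed sign, as did that of coinhibitory receptors with upper-quartile scaling. The interaction, with no call in the report and none when any library was left out, gave 1 call with DESeq2 (Mamdc4), 6 with the likelihood ratio test, 31 without a filter on low counts, and 1 and 1 with limma at the 2 pseudocounts (Exosc6 both times). A fit with a replicate block called 4899 genes, and 0 for the interaction. Deviations of same-numbered CD18Foxp3 cultures correlated by 0.18, 0.07 and 0.24, each the highest of its library, against -0.199 to 0.0074 for other numbers. In CD18wt Treg the same numbers gave 0.17, -0.065 and -0.11. Pairing by number is thus possible in CD18Foxp3 Treg, and the main fit left it out. What caused these differences was not tested. Depth limits the genes with few reads, such as Il2 and Il3, to wide or one-sided ratios.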

Other observations

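Several of the steepest changes among abundant genes lie outside the lists and were chosen after their values were seen. Tfrc, the transferrin receptor that brings iron into dividing cells, was at 9.77, 9.26 and 12.4 TPM in unstimulated and 394, 290.3 and 272 TPM in stimulated CD18Foxp3 Treg, a rise of 4.57 ± 0.198 (log2 ± SE, n = 3 against 3). Bcat1, which breaks down branched-chain amino acids, rose by 5.38 ± 0.18 (0.947, 1.19 and 0.742 TPM to 53.95, 50.2 and 50.6 TPM), and Shmt1, the cytosolic partner of Shmt2, by 3.68 ± 0.12. The transcription factors Myb and Rbpj, the latter the effector of Notch signalling, rose by 3.93 ± 0.15 and 3.102 ± 0.15, the histone methyltransferase Ezh2 by 2.65 ± 0.16, and the cytokine Lif from 1.87, 2.91 and 3.73 TPM to 31.2, 46.7 and 56.6 TPM. Zfp36 (tristetraprolin), which destabilizes cytokine mRNAs, fell from 436, 512 and 579.97 TPM to 69.6, 66.8 and 66.7 TPM. Art2b, a surface ADP-ribosyltransferase that acts upstream of P2rx7, fell from 156, 169.6 and 154 TPM to 16.5, 15.7 and 10.6 TPM, and the cholesterol exporter Abcg1 with -3.21 ± 0.13.

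Beside Cyp1a1, other known targets of the aryl hydrocarbon receptor, also chosen after their values were seen, were higher in stimulated cultures. Ahrr, the repressor of the receptor, was at 0.0297, 0.0184 and 0 TPM unstimulated and 3.91, 4.82 and 6.91 TPM stimulated, and Cyp1b1 at 0, 0.0297 and 0 against 1.43, 0.924 and 3.91 TPM. Tiparp rose by 1.73 ± 0.14 (10.9, 9.197 and 9.41 TPM to 45.3, 41.2 and 39.5 TPM). The receptor gene Ahr was at 11.6, 14.4 and 12.7 against 22.9, 19.2 and 23.1 TPM and did not pass. In CD18wt Treg the log2 fold change was 6.19 for Cyp1a1 and 1.09 for Tiparp, and no gene passed edgeR's quasi-likelihood test of the interaction.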
